A study of Arabidopsis thaliana with 18 samples.

Results

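The change from 12 h to 24 h of light in the hy1 mutant was set against the change over the same hours in the wild type (WT), as (hy1 24 h minus hy1 12 h) minus (WT 24 h minus WT 12 h) on the log2 scale. The material was hypocotyls of Arabidopsis thaliana, the seedling stem between root and cotyledons, moved from darkness to light. The groups were WT at 12 h, WT at 24 h, hy1 at 12 h and hy1 at 24 h, with 3 poly-A RNA libraries each, so that 12 of the 18 libraries of the series entered and its dark libraries did not. Of 32833 genes in the count table, 20521 passed a filter on low counts and made up the comparison, and all p-values were adjusted over these. The labels name neither the hy1 allele nor the WT accession, and they give hours of light but no time of day, light quality or seedling age. Titles call the WT libraries mock and the hy1 libraries not, so a treatment that went with genotype cannot be told apart from it. Whether replicates were grown apart is not stated, and the p-values then cover only the variation among these libraries, which may be technical.

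HY1 encodes a haem oxygenase of plastids, an enzyme on the route to the chromophore of phytochromes, which are the red and far-red light receptors of plants. Among the systems they set is the circadian clock, a loop of transcription factors. CCA1 and LHY peak in the morning and repress genes of the afternoon and evening, the pseudo-response regulators PRR9, PRR7, PRR5 and TOC1 follow one another through the day and repress CCA1 and LHY in turn, and the evening complex of ELF3, ELF4 and LUX closes the loop. RVE8 with the LNK proteins activates afternoon and evening genes, and GI with the blue-light receptor FKF1 removes the CDF repressors of flowering. Hypocotyl growth, starch breakdown and cold tolerance are known outputs of this clock.

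The 12 libraries held 38469946 to 59905064 counts. In WT, 2 libraries at 12 h (replicates 2 and 3) and 1 at 24 h (replicate 3) differed from the others of their group, and are called those that stood apart. Pairs that mixed them with the others correlated across genes at r = 0.943 to 0.9686, the other 8 within-group pairs at 0.9769 to 0.9914, and genes are not independent replicates. At 12 h replicates 2 and 3 correlated at 0.9769 with each other and at 0.943 and 0.9652 with replicate 1. There replicate 1 is the whole rest of the group, and the correlations do not show which side is unusual. Sample quality weights from limma-voom were 0.128, 0.381 and 2.07 for WT 12 h replicates 1, 2 and 3. Photosystem genes lay lower in the 3 libraries, with median log2 differences from the rest of the group of -0.597 (12 h) and -0.955 (24 h), and regulators of root formation higher, by 0.565 and 0.566. Clock genes had median differences of -0.0413 and 0.0582, and their summed level was 2232 and 2879 CPM in the 2 libraries at 12 h against 4231 in replicate 1, and 2271 in the 1 at 24 h against 2833 and 3115. For the gene lists below, the counts of members called for a difference in change are also given without these 3 libraries. Of 12 root hair and root tip markers 9 were under 1 CPM (the usual depth-scaled read count, not scaled for gene length) in all 12 libraries, with summed levels of 19.4 to 45.2 CPM at WT 12 h and 14.9 to 24 in the other groups. LRX1, a root hair wall protein, had no read. Of 12 seed reserve markers 11 were under 1 CPM throughout. Other markers were present. Of 9 shoot meristem markers 2 were under 1 CPM throughout. Their summed levels were 278 to 811 CPM in WT and 371 to 540 in hy1 at 12 h, and 251 to 436 and 284 to 349 at 24 h. Of 13 stomatal lineage markers 2 were under 1 CPM throughout, with sums of 36.7 to 66.9 in WT and 62.3 to 97.1 in hy1 at 12 h. Whether tissue other than the hypocotyl contributed was not tested.

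HY1 (AT2G26670, chromosome 2, 11341548 to 11343693, plus strand) checks the labels only in part, since its transcript was present in every hy1 library. It stood at 24.3, 21 and 20.1 CPM in hy1 at 12 h and 18.6, 19.5 and 19.1 at 24 h, and at 34.1, 25.6 and 23.6 and 40.6, 43.3 and 34.2 in WT. The genotypes overlapped at 12 h and not at 24 h, where all hy1 libraries were lower (-1.05 ± 0.15, adjusted p = 0.0013). The difference between the 2 changes was -0.70 ± 0.21, adjusted p = 0.349, so HY1 itself was not called.

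Of the genes whose change from 12 h to 24 h differed between genotypes, 13 were on a list of 31 clock genes, and others were light signalling, starch breakdown and cold response genes. The clock and light lists were drawn up with earlier results of these data known. Those of starch breakdown and cold response were drawn up after results were seen, so their counts are description only. A larger change here means a more positive one on the signed log2 scale. In total 55 genes (0.268% of those tested) differed in their change at adjusted p under 0.05, 40 with a larger change in hy1 (0.195%) and 15 with a smaller one (0.0731%). At an unadjusted p under 0.05 there were 1532, and the median difference over all genes was -0.0078. For all 55, no change between a 24 h and a 12 h library of hy1 overlapped with such a change in WT, which held for 3.84% of all genes tested. Without the 3 libraries that stood apart, 166 genes passed, 112 with a larger change in hy1 (0.532% of 21043 tested) and 54 with a smaller one (0.257%), and 49 of the 55 were among them. The count was 151 without WT 12 h replicate 1 and between 21 and 39 without any other single library. Of the 55, 20 were called whichever library was left out: PRR9, FKF1, PRR7, LNK1, CDF3, RVE7, LHY, CCA1, RVE2, BOA, PIF4, COL5, NIP6;1, AT1G56300, GOLS3, ABF1, AT1G73480, XTH17, BBX28 and SIG5. The others each lost their call in at least 1 such fit, and all 55 kept their direction. Of the 12 such fits GI was called in 7, LNK4 in 5, BBX22 in 3, WSD1 in 3, AT2G28780 in 2 and COR27 in 1.

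The 40 and the 15 genes were chosen by the difference of the changes, so counts of their patterns follow in part from that choice. Those counts are description only. The 40 genes with the larger change were mostly below WT in hy1 at 12 h and above it at 24 h. By point values 27 of them went up in hy1 and down in WT, 5 up in both and 8 down in both, and 32 lay below WT at 12 h and above it at 24 h. For 18 of these the genotype difference passed the test at both times. Of the 15 with the smaller change, 7 went down in hy1 and up in WT, 6 up in both and 2 down in both, and 13 lay above WT at 12 h. Over all genes, 1.68% rose and 1.53% fell in hy1 from 12 h to 24 h, while 2.13% rose and 3.22% fell in WT. The balance of directions was not stable: of the genes called in hy1 52.4% rose, against 41.5% with limma on log2(FPKM + 1), and of those called in WT 39.9% rose, against 53.7% without WT 12 h replicate 1. In hy1 against WT, 9.9% of genes were higher and 12.7% lower at 12 h, and 7.62% were higher and 6.55% lower at 24 h. Of the genes called at 12 h 43.9% were higher in hy1, against 68.6% with limma on log2(FPKM + 1), where the median over all genes was 0.11, and 49.5% without the 3 libraries. These comparisons share libraries, and the values of each gene are given side by side below.

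**Figure D1:**
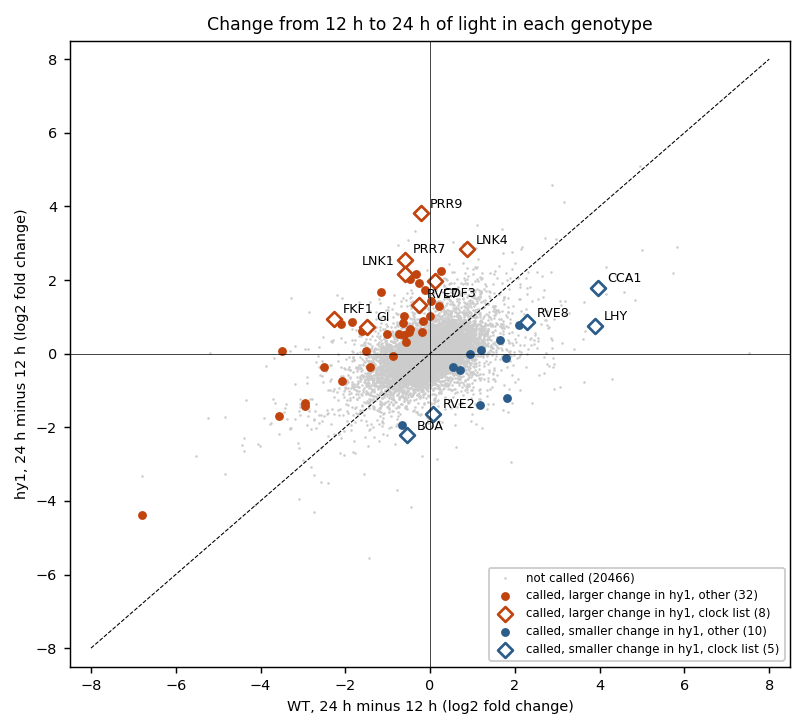
Log2 fold change from 12 h to 24 h of light in WT (horizontal axis) and in hy1 (vertical axis) for the 20521 genes tested, with the dashed line where both are equal. The 40 genes called with a larger change in hy1 lie above the line and the 15 with a smaller one below it, clock genes as open diamonds, PRR9 at 3.81 in hy1 and -0.22 in WT.

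In the list of 31 clock genes, 8 had a larger change in hy1 (PRR9, FKF1, PRR7, LNK1, GI, LNK4, CDF3 and RVE7) and 5 a smaller one (LHY, CCA1, RVE2, BOA and RVE8). The median of the list was 0.15, with 20 members above 0. Without the 3 libraries 11 and 5 passed. From 12 h to 24 h, 12 members rose and 5 fell in hy1, while 7 rose and 9 fell in WT. In bulk RNA a change in the number of cells of a type and a change of RNA per cell cannot be told apart, for these genes and those below.

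The morning factors were high early in hy1. CCA1 (AT2G46830, chromosome 2, 19245591 to 19248915, plus strand), a MYB repressor at the core of the clock, stood at 48.7, 56.4 and 73.8 CPM in hy1 at 12 h against 5.48, 4.52 and 4.5 in WT, and at 215, 207 and 198 against 74.1, 72.9 and 80.9 at 24 h. All hy1 libraries were above all WT libraries at both times, but the distance shrank from 3.62 ± 0.16 to 1.44 ± 0.15 on the log2 scale. It rose in both genotypes, by 1.79 ± 0.15 in hy1 and 3.97 ± 0.17 in WT, so the change was smaller in hy1 (-2.18 ± 0.21, adjusted p = 0.00102). LHY (AT1G01060, chromosome 1, 33365 to 37871, minus strand), its close relative, stood at 96.6, 109 and 141 CPM in hy1 at 12 h, when WT held 5.93, 11.8 and 8.94, and at 203, 195 and 189 against 117, 119 and 161 at 24 h. The WT libraries thus began far below hy1 and ended close to it. LHY rose in WT (3.9 ± 0.26, adjusted p = 1.89e-05), with 0.76 ± 0.23, adjusted p = 0.114 in hy1 and a difference of -3.14 ± 0.33, adjusted p = 0.00196.

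RVE8 (AT3G09600, chromosome 3, 2946239 to 2949017, plus strand), an activator of afternoon and evening genes, was at 28.2, 28.9 and 36.4 CPM in hy1 at 12 h and at 8.74, 11 and 7.92 in WT. At 24 h it was at 53.1, 58.4 and 56.7 and 41.2, 43 and 51.4, so that the groups had come within a log2 difference of 0.31 ± 0.15 of each other. It rose in both, and less in hy1 (-1.45 ± 0.21, adjusted p = 0.0184). RVE2 (AT5G37260, chromosome 5, 14751344 to 14753088, minus strand), a MYB factor of the same family also named CIR1, went from 209, 230 and 266 to 79.1, 71.8 and 76.9 CPM in hy1 and stayed between 104 and 144 CPM in the 6 WT libraries. It fell in hy1 (-1.63 ± 0.14, adjusted p = 0.000111), and hy1 went from above WT to below it (difference -1.71 ± 0.19, adjusted p = 0.00329). RVE7 (AT1G18330, chromosome 1, 6305814 to 6308243, minus strand), a further member, did the reverse, from 16.7, 19.4 and 15.8 to 51.2, 38.7 and 39.1 CPM in hy1 and from 28.2, 30.6 and 24.6 to 23.2, 23.4 and 23.1 in WT. All hy1 libraries were below WT at 12 h and above it at 24 h (1.57 ± 0.19, adjusted p = 0.0057).

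LNK1 and LNK4, partners of the RVE activators, had larger changes in hy1. LNK1 (AT5G64170, chromosome 5, 25672466 to 25676823, minus strand) stood at 15.7, 16.1 and 16.1 CPM in hy1 at 12 h and 70.9, 74.8 and 67.8 at 24 h, and at 48.8, 75.9 and 66.5 and then 38.9, 39.9 and 48.1 in WT. The mutant was lower at 12 h and higher at 24 h, with no overlap at either time. It rose in hy1 (2.15 ± 0.15) and fell in WT (-0.59 ± 0.15), a difference of 2.74 ± 0.21, adjusted p = 0.000356. LNK4 (AT5G06980, chromosome 5, 2167120 to 2169437, plus strand) went from 7.81, 8.44 and 8.37 to 61.6, 55 and 59.2 CPM in hy1 and from 14.5, 7.61 and 9.56 to 21.9, 20.5 and 15.6 in WT. It rose in both and more in hy1 (1.96 ± 0.29, adjusted p = 0.0223), the genotypes overlapping at 12 h and standing apart at 24 h. LNK3 had 1.46 ± 0.26, adjusted p = 0.0524 and passed without the 3 libraries (1.7 ± 0.21, adjusted p = 0.00241). LNK2, whose levels were 44.9, 58.6 and 71.9 and 276, 269 and 267 CPM in hy1 and 8.93, 11.5 and 9.87 and 63.3, 68.5 and 85.7 in WT, rose in both, with a difference of -0.64 ± 0.25, adjusted p = 0.557.

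Of the pseudo-response regulators, PRR9 and PRR7 parted furthest. PRR9 (AT2G46790, chromosome 2, 19232607 to 19235179, plus strand) stood at 1.86, 1.62 and 1.46 CPM in hy1 at 12 h and 22.4, 21.9 and 25.3 at 24 h, while WT held 6.3, 6.51 and 5.76 and then 6.19, 4.28 and 5.46. WT changed little beside its own spread, and hy1 went from below every WT library to above every one. PRR9 rose in hy1 (3.81 ± 0.17, adjusted p = 2.39e-06), with -0.22 ± 0.15, adjusted p = 0.415 in WT, and the difference was 4.03 ± 0.22, adjusted p = 2.72e-05. PRR7 (AT5G02810, chromosome 5, 637681 to 642030, minus strand) went from 19.7, 21.7 and 21.8 to 130, 116 and 124 CPM in hy1 and from 47.9, 66.5 and 66.9 to 33.9, 33.4 and 53.2 in WT. Here too hy1 began below and ended above all WT libraries (3.14 ± 0.27, adjusted p = 0.000528). PRR5 had 1.83 ± 0.37, adjusted p = 0.109, and passed without the 3 libraries (1.35 ± 0.16, adjusted p = 0.00228), TOC1 had 0.58 ± 0.18, adjusted p = 0.374, and PRR3 0.15 ± 0.14, adjusted p = 0.815.

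GI and FKF1, which act together in the afternoon, went down in WT between the times. GI (AT1G22770, chromosome 1, 8061751 to 8067790, plus strand) stood at 263, 248 and 274 CPM in WT at 12 h and at 94, 97 and 90.3 at 24 h, and at 48.1, 31.8 and 22.1 and 54.6, 60.3 and 54.2 in hy1. Every hy1 library was below every WT library at both times, by -2.94 ± 0.23 and -0.73 ± 0.21 on the log2 scale. GI fell in WT (-1.48 ± 0.22, adjusted p = 0.00301), with 0.73 ± 0.21, adjusted p = 0.109 in hy1 and a difference of 2.21 ± 0.31, adjusted p = 0.0138. Its call was lost when any of 5 single libraries was left out (adjusted p up to 0.0607). FKF1 (AT1G68050, chromosome 1, 25508639 to 25510907, plus strand) went from 14.3, 9.44 and 10.8 to 3.03, 2.64 and 1.49 CPM in WT and from 6.89, 5.7 and 3.88 to 10.8, 11.9 and 9.18 in hy1. WT was higher at 12 h and hy1 at 24 h, without overlap (3.22 ± 0.39, adjusted p = 0.0057). CDF3 (AT3G47500, chromosome 3, 17503883 to 17506124, minus strand), a DOF repressor of flowering that GI and FKF1 act on, went from 17.3, 19.4 and 20.6 to 74, 76.6 and 73.5 CPM in hy1 and stayed between 21 and 28.2 CPM in the 6 WT libraries (1.84 ± 0.17, adjusted p = 0.00083). CDF2 had -0.016 ± 0.18, adjusted p = 0.981, and ZTL and LKP2, relatives of FKF1, had 0.20 ± 0.16, adjusted p = 0.807 and 0.15 ± 0.32, adjusted p = 0.891.

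The evening genes were split. BOA (AT5G59570, chromosome 5, 24003888 to 24007844, plus strand), a GARP factor closely related to LUX and known as an activator of CCA1, went from 19.4, 22.7 and 19.3 to 4.56, 4.7 and 4.01 CPM in hy1 and from 17.5, 14.6 and 13.7 to 10.6, 10.4 and 10.6 in WT. It fell in both, and further in hy1 (-1.67 ± 0.18, adjusted p = 0.00196). LUX, of the evening complex, stood at 68.4, 61.9 and 51.7 CPM in hy1 at 12 h, 22.1, 24 and 19.8 at 24 h, 134, 146 and 135 in WT at 12 h and 51.4, 52.2 and 49.3 at 24 h. It fell by about the same amount in both genotypes, -1.46 ± 0.12 in hy1 and -1.44 ± 0.12 in WT, and the difference was -0.024 ± 0.17, adjusted p = 0.968. ELF3 and ELF4, its partners, had -0.025 ± 0.30, adjusted p = 0.983 and -0.20 ± 0.46, adjusted p = 0.898. For these genes a difference in change was not detectable, which does not show that the changes were equal. The remaining members of the list, RVE4, RVE1, CHE, CO, FT, CCR2 and GRP8, did not pass with 12 libraries. Among these CO, which promotes flowering in long days, had -1.01 ± 0.41, and its target FT 1.93 ± 0.65. CCR2 (AT2G21660), an RNA-binding protein of a clock-driven loop, passed without the 3 libraries (1.31 ± 0.17, adjusted p = 0.00399), with 0.76 ± 0.66, adjusted p = 0.81 in all 12.

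**Figure D2:**
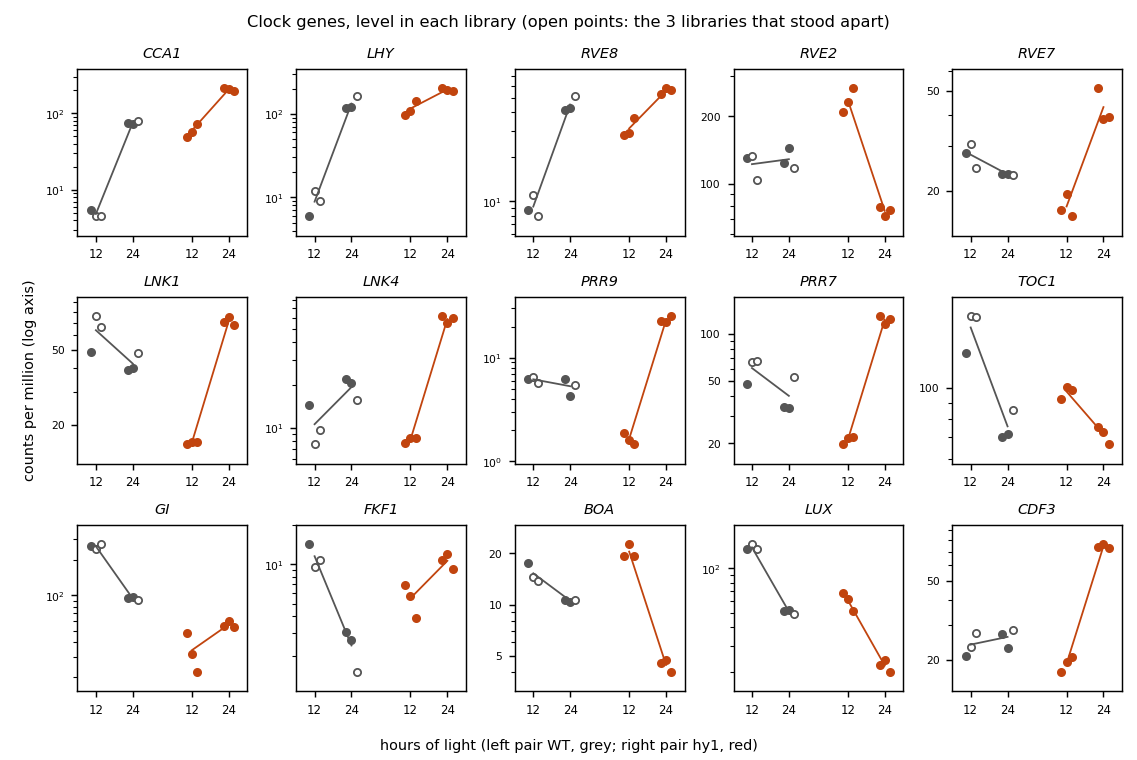
Levels of 15 clock genes in CPM (log axis) in each of the 12 libraries, WT in grey and hy1 in red, with lines between group means and open points for the 3 libraries that stood apart. CCA1 and LHY began higher in hy1, PRR9, PRR7 and LNK1 crossed from below WT at 12 h to above it at 24 h, and LUX, which was not called, fell in both genotypes.

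**Figure D3:**
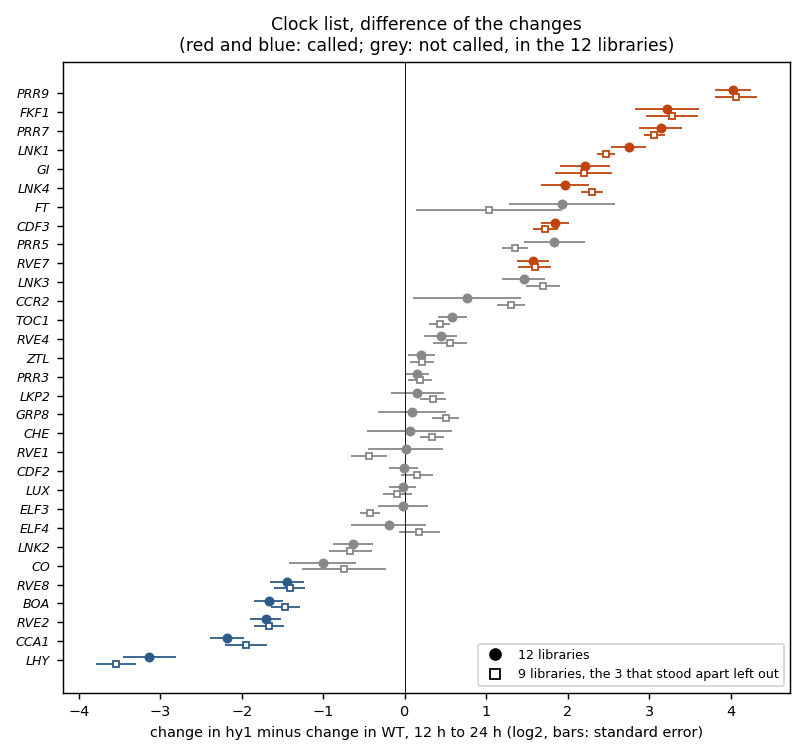
Difference between the change in hy1 and the change in WT (log2, with standard error) for the 31 clock genes, in 12 libraries (filled circles) and in the 9 left without the 3 that stood apart (open squares). Values run from 4.03 for PRR9 to -3.14 for LHY, and the 13 called genes kept their sign without the 3 libraries.

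Letters near the start of these genes are shown because the clock proteins are known to bind some of them. CCA1 and its relatives bind the evening element AAAATATCT, and bZIP, bHLH and PRR-associated factors gather at the G-box CACGTG. In a window from 250 bases before to 50 after the annotated start, read from the RefSeq TAIR10.1 genome on both strands, the evening element was present in 14 of the 40 genes with a larger change in hy1 (35%), in 1 of the 15 with a smaller one (6.67%, BOA), and in 2.92% of the 20454 genes tested that had a window. Among the 14 were PRR9, FKF1, AT3G42800, AT1G56300, ABF1, RVE7, CYP71B26, RPP5, BBX24, LTI30, AT2G30600, SEX1 and CDS1. In 7 of the 14 it lay wholly before the start, and in 7 across or after it. The G-box was present in 7 of the 40 (17.5%) and 5 of the 15 (33.3%), which were all 5 of the clock genes with a smaller change. It was in 3 of the 8 clock genes with a larger change and in 8.63% of all windows. Among the clock genes the evening element was in 3 of the 8 with a larger change and in 1 of the 5 with a smaller one. The related letters AAAAATCT were present in 3 of the 40, in 1 of the 15 and in 7.96% of all. The bare core ACGT, which the G-box contains, was in 62.5% and 60% against 50.2%, the telo-box AAACCCTA in 2.5% and 0% against 5.55%, the I-box GATAAG in 2.5% and 26.7% against 14.7%, and AACCTAAC in 0% of both against 1.08%. These are matches of letters and not sites shown to be bound, and shares over 40 or 15 genes are imprecise.

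The 250 bases before the start follow for 3 genes with a smaller change, which carry the G-box, and 2 with a larger change, which carry the evening element, 5′ to 3′ on the strand of the gene, with matches to the G-box, to the evening element and to AAAAATCT on either strand in capitals. The windows, on TAIR10.1, are chr2:19245341-19245590, plus strand for CCA1, chr1:37872-38121, minus strand for LHY, chr5:24003638-24003887, plus strand for BOA, chr1:25508389-25508638, plus strand for FKF1 and chr1:6308244-6308493, minus strand for RVE7.
CCA1: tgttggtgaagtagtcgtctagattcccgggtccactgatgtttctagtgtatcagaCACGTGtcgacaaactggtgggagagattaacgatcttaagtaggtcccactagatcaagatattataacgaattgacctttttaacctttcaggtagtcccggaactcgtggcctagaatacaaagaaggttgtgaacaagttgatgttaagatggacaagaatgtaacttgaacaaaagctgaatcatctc
LHY: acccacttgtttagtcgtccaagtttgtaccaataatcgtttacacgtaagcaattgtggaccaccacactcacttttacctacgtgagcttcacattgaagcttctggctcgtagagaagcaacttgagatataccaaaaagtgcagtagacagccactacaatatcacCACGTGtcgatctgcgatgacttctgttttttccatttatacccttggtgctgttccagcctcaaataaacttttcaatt
BOA: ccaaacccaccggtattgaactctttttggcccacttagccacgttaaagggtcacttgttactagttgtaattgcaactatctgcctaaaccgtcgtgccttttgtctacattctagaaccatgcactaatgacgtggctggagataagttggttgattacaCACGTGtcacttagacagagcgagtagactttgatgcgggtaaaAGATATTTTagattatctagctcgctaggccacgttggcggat
FKF1: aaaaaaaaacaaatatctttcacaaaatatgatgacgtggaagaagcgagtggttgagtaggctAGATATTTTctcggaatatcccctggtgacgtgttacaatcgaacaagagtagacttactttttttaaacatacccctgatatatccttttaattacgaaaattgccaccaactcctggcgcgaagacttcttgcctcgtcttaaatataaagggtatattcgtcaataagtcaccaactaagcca
RVE7: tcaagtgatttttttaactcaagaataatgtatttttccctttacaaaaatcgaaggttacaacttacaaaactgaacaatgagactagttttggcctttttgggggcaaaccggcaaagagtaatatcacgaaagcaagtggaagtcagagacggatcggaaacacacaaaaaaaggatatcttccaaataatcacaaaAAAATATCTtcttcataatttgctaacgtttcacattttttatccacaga
In CCA1 the G-box lay 193 to 188 bases before the start, in LHY 80 to 75 and in BOA 87 to 82. BOA also held an evening element, on the opposite strand, 43 to 35 bases before its start. FKF1 had one on the opposite strand at 186 to 178, and RVE7 one at 50 to 42. PRR9 and PRR7, not printed, had a larger change and carried the G-box before the start. It lay at 244 to 239 and 172 to 167 in PRR9 and at 201 to 196 in PRR7.

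By library levels, the light signalling genes called were below WT in hy1 at 12 h and above it at 24 h, though not all passed at 24 h. In a list of 35 such factors 4 had a larger change in hy1 and none a smaller one, with a median of 0.081, and without the 3 libraries the counts were the same and the median was -0.10. PIF4 (AT2G43010), a bHLH factor that promotes hypocotyl growth and is degraded through phytochrome, went from 4.4, 6.1 and 5.54 to 14.4, 19.1 and 17.5 CPM in hy1 and from 12.4, 18.4 and 21.5 to 7.73, 6.19 and 9.6 in WT. The hy1 libraries were all below WT at 12 h and all above it at 24 h. It rose in hy1 (1.67 ± 0.23) and fell in WT (-1.15 ± 0.23), a difference of 2.83 ± 0.32, adjusted p = 0.00382. Its relatives PIF5, PIF1, PIF3 and PIF7 had 1.08 ± 0.26, adjusted p = 0.192, 0.48 ± 0.31, adjusted p = 0.796, 0.42 ± 0.19, adjusted p = 0.674 and 0.14 ± 0.35, adjusted p = 0.906. HY5 and HYH, the bZIP factors of light-grown development, had -0.078 ± 0.20, adjusted p = 0.908 and -0.54 ± 0.18, adjusted p = 0.42.

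The other light factors called were B-box zinc finger proteins. BBX28 (AT4G27310), which restrains HY5, went from 12.9, 12 and 14 to 44.7, 44.4 and 40.4 CPM in hy1 and stayed between 14.5 and 19.2 CPM in the 6 WT libraries (1.84 ± 0.17, adjusted p = 0.000746). BBX24 (AT1G06040), which opposes HY5, went from 94.7, 96.4 and 106 to 187, 179 and 182 CPM in hy1 and from 160, 150 and 178 to 136, 142 and 156 in WT (1.05 ± 0.15, adjusted p = 0.014). BBX22 (AT1G78600), a positive partner of HY5, was level in hy1 at 66.4, 68.2 and 68.1 and then 68.7, 71.1 and 73.4 CPM and went from 110, 184 and 150 to 44, 48.4 and 62.7 in WT. In all 3 the hy1 libraries were below WT at 12 h and above it at 24 h. The genotype difference at 24 h did not pass for BBX24 (0.34 ± 0.10, adjusted p = 0.0518) or BBX22 (0.46 ± 0.18, adjusted p = 0.109). BBX22 fell in WT (-1.52 ± 0.18, adjusted p = 0.000927), with 0.073 ± 0.18, adjusted p = 0.955 in hy1 and a difference of 1.59 ± 0.25, adjusted p = 0.031.

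In a wider list of 20 CONSTANS-like and B-box genes, drawn up after results were seen, 4 had a larger change in hy1 and 1 a smaller one (5 and 1 without the 3 libraries), and the median was -0.04. COL5 (AT5G57660), a CONSTANS-like factor, stood at 88.2, 99.8 and 94.8 CPM in hy1 at 12 h and 201, 191 and 186 at 24 h, with 64.7, 85.1 and 80.6 and 54.8, 41.5 and 55 in WT. It rose in hy1 and fell in WT (1.64 ± 0.20, adjusted p = 0.00539). COL9 (AT3G07650), a CONSTANS-like factor known to delay flowering, went from 59.9, 70.9 and 63.3 to 18, 17 and 15.7 CPM in hy1 and from 62.9, 56.3 and 51.1 to 38.3, 38.1 and 31.7 in WT. It fell in both and further in hy1 (-1.28 ± 0.17, adjusted p = 0.00928). At 12 h the hy1 libraries lay above WT for COL5 and mixed with it for COL9, and at 24 h they were apart for both, above WT for COL5 and below it for COL9. In the list of plastid development factors 1 of 17 was called, SIG5 (AT5G24120), a sigma factor of plastid transcription, and the median was 0.24 (without the 3 libraries 1 passed, median -0.19). It went from 35.1, 39.4 and 36.4 to 66.3, 67.5 and 62.8 CPM in hy1 and from 67.5, 70 and 57.9 to 41.6, 43.3 and 39.7 in WT (1.47 ± 0.14, adjusted p = 0.000868).

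Of 18 genes of starch breakdown, a list drawn up after results were seen, 4 had a larger change in hy1 and none a smaller one, with a median of 0.28. Without the 3 libraries 4 and 1 passed, SEX4 no longer among them (1.06 ± 0.23, adjusted p = 0.0614). SEX1 (AT1G10760), the glucan, water dikinase that starts breakdown, stood at 116, 126 and 102 CPM in hy1 at 12 h and 149, 146 and 136 at 24 h, with 176, 179 and 187 and 124, 109 and 130 in WT. PHS2 (AT3G46970), the cytosolic glucan phosphorylase, went from 32.1, 39.9 and 32 to 46.3, 53.2 and 47.2 CPM in hy1 and from 69, 57.1 and 65.1 to 46.8, 38.6 and 39.3 in WT. Both were lower in every hy1 library than in WT at 12 h, and at 24 h SEX1 was higher in every hy1 library while PHS2 overlapped. The differences were 0.9 ± 0.16, adjusted p = 0.0474 and 1.11 ± 0.18, adjusted p = 0.0339. AMY3, a plastid alpha-amylase, and SEX4, a glucan phosphatase, had 1.09 ± 0.19, adjusted p = 0.0474 and 1.27 ± 0.22, adjusted p = 0.0474. All 4 lost their call with upper-quartile scaling, and each in at least 8 of the 12 fits with a library left out. PHS1 (AT3G29320), the plastid phosphorylase, had 0.99 ± 0.19, adjusted p = 0.0871, DPE2, which uses maltose, 0.59 ± 0.17, adjusted p = 0.322, and the beta-amylases BAM1, BAM2, BAM3, BAM4 and BAM9 ran from -0.77 to 0.028.

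In the cold response list of 18 genes, also drawn up after results were seen, 4 had a larger change in hy1 and none a smaller one, with a median of 0.98. Without the 3 libraries 4 and 1 passed, and the median was 0.97. GOLS3 (AT1G09350), a galactinol synthase of raffinose sugars, went from 5.63, 6.57 and 5.67 to 26.2, 20.2 and 33 CPM in hy1 and from 11.2, 10 and 10.9 to 8.28, 8.91 and 8.39 in WT. Every hy1 library was below WT at 12 h and above it at 24 h (2.48 ± 0.23, adjusted p = 0.00083). COR27 (AT5G42900), a cold-regulated repressor of clock genes, went from 7.67, 7.39 and 8.46 to 3.3, 3.46 and 2.47 CPM in hy1 and from 10.9, 12.4 and 9.37 to 1.06, 1.57 and 1.59 in WT. It fell in both and less in hy1 (1.61 ± 0.27, adjusted p = 0.0442). LTI30, a dehydrin, fell in WT (-1.41 ± 0.11) and had -0.38 ± 0.10, adjusted p = 0.0882 in hy1 (1.03 ± 0.15, adjusted p = 0.018). P5CS1, an enzyme of proline synthesis, had 1.14 ± 0.19, adjusted p = 0.0458 and 1.09 ± 0.22, adjusted p = 0.0525 without the 3 libraries. CBF1, CBF2 and CBF3, the factors that switch on cold genes, were each under 1 CPM on average and had 0.96 ± 1.02, 1.0 ± 0.64 and 2.0 ± 0.80. None passed with 12 libraries, and CBF3 passed without the 3 (2.74 ± 0.54, adjusted p = 0.0411).

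Single members passed in 4 other lists. Of 25 abscisic acid genes 1 was called (median 0.66, 22 members above 0, and 2 called without the 3 libraries), ABF1 (AT1G49720), a bZIP factor of that hormone's response, at 20.1, 17.5 and 16 and then 28.5, 27.9 and 25.5 CPM in hy1 and 34.3, 29.1 and 29.3 and then 9.69, 11.3 and 9.28 in WT. It rose in hy1 and fell in WT (2.22 ± 0.18, adjusted p = 0.000356). Of 28 expansins and xyloglucan enzymes 1 was called (median 0.21, with 2 higher and 1 lower without the 3 libraries), XTH17 (AT1G65310), a xyloglucan endotransglucosylase of the wall, at 12.9, 12.7 and 10.5 and 9.95, 6.9 and 11.5 CPM in hy1 and 32.8, 24 and 32.3 and 5.25, 5.03 and 5.41 in WT. It fell in WT, with -0.35 ± 0.19, adjusted p = 0.447 in hy1 (2.15 ± 0.27, adjusted p = 0.0057). Of 16 genes of the Casparian strip and endodermis 1 was called, and all 16 were above 0 (median 0.72, and 0.93 without the 3 libraries, where 2 passed). CASP5 (AT5G15290), a membrane scaffold of the strip, went from 9.37, 12.6 and 13.6 to 0.52, 0.633 and 0.53 CPM in hy1 and from 33.8, 65.9 and 52.8 to 0.532, 0.299 and 0.529 in WT. It fell in both to a similar level, from a higher start in WT (2.4 ± 0.41, adjusted p = 0.0461), and the call held in 1 of the 12 fits with a library left out. Of 24 genes induced by PIF factors or shade 1 was called, BBX28 again (median 0.36, and 2 called without the 3 libraries).

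**Figure D4:**
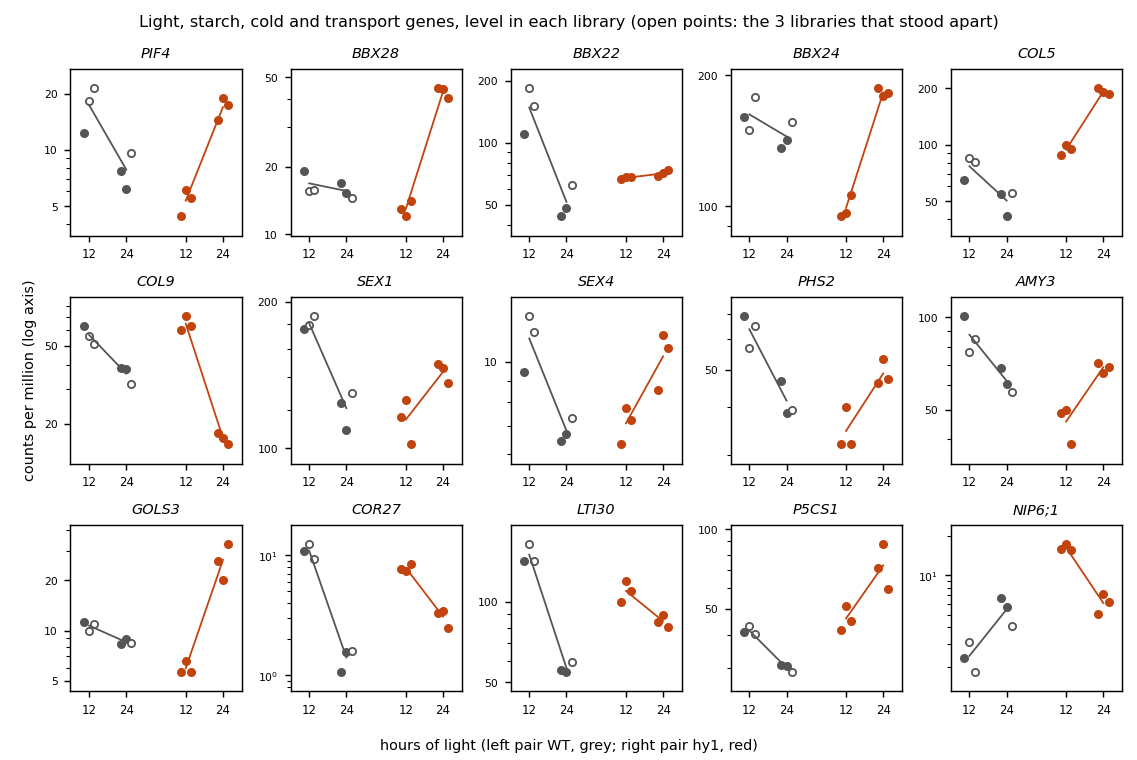
Levels of 15 called genes of light signalling, starch breakdown, cold response and transport in CPM (log axis) in each of the 12 libraries, WT in grey and hy1 in red, with lines between group means and open points for the 3 libraries that stood apart. For PIF4 and COL5 the hy1 lines rise while the WT lines fall, and for NIP6;1 the reverse.

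Outside the lists, the genes with a smaller change included transporters and enzymes. NIP6;1 (AT1G80760), a boron channel of the aquaporin family, went from 15.9, 17.3 and 15.5 to 5.06, 7.14 and 6.2 CPM in hy1 and from 2.34, 3.12 and 1.82 to 6.64, 5.72 and 4.11 in WT. The hy1 libraries were all above WT at 12 h and mixed with it at 24 h (-2.58 ± 0.32, adjusted p = 0.0057). GLYI4 (AT1G15380), a glyoxalase I family protein, stood at 17.2, 18.7 and 22 CPM in hy1 at 12 h and 20.1, 16.2 and 16.9 at 24 h, against 1.43, 0.888 and 0.705 and 3.78, 3.04 and 3.66 in WT. It was higher in every hy1 library at both times, by 4.26 ± 0.24 and 2.35 ± 0.22, and the difference of -1.92 ± 0.31, adjusted p = 0.033 did not pass without the 3 libraries (-1.37 ± 0.29, adjusted p = 0.0553). KCS12 (AT2G28630), a ketoacyl-CoA synthase of fatty acid elongation, had -1.28 ± 0.21, adjusted p = 0.0377, and CYP96A12, a cytochrome P450, -1.11 ± 0.17, adjusted p = 0.0237. The amino acid transporter UMAMIT27 had -1.14 ± 0.19, adjusted p = 0.0442, the malate channel ALMT1 -0.9 ± 0.14, adjusted p = 0.0246, and the peroxidase AT5G64100 -0.95 ± 0.16, adjusted p = 0.0461. UMAMIT26, of the same family and under 1 CPM in every library, had -3.03 ± 0.47, adjusted p = 0.0271.

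Several genes with a larger change were in none of the lists. AT1G56300, a DnaJ-domain protein, went from 5.19, 5.01 and 4.74 to 7.56, 9.09 and 10.3 CPM in hy1 and from 5.95, 6.54 and 6.2 to 2, 1.69 and 1.54 in WT (2.68 ± 0.22, adjusted p = 0.000356). AT4G00910, annotated as of the malate channel family, went from 5.48, 4.74 and 4.74 to 21.3, 18.8 and 21.1 CPM in hy1 and lay between 1.22 and 2.82 CPM in the 6 WT libraries (2.51 ± 0.34, adjusted p = 0.0121). AT1G73480, annotated as an alpha/beta-hydrolase, had 2.19 ± 0.28, adjusted p = 0.00871, and AT2G28780 1.99 ± 0.34, adjusted p = 0.0461. In all 4 every hy1 library was above every WT library at 24 h, AT1G73480 at 20.7, 24.8 and 20.6 CPM in hy1 against 4.01, 4.95 and 4.3 in WT. WSD1 (AT5G37300), a wax ester synthase gene chosen after its values were seen, was level in hy1 at 1.63, 1.65 and 1.46 and then 1.82, 1.63 and 1.54 CPM and went from 2.44, 3.98 and 2.96 to 0.204, 0.0995 and 0.529 in WT (3.56 ± 0.56, adjusted p = 0.031). Of the 55 genes, 14 overlap a gene on the opposite strand, FKF1, LNK1, BOA, ABF1, CASP5, BBX24, AT1G56300, AT4G00910 and NIP6;1 among them, and reads of such pairs cannot be told apart without strand.

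**Figure D5:**
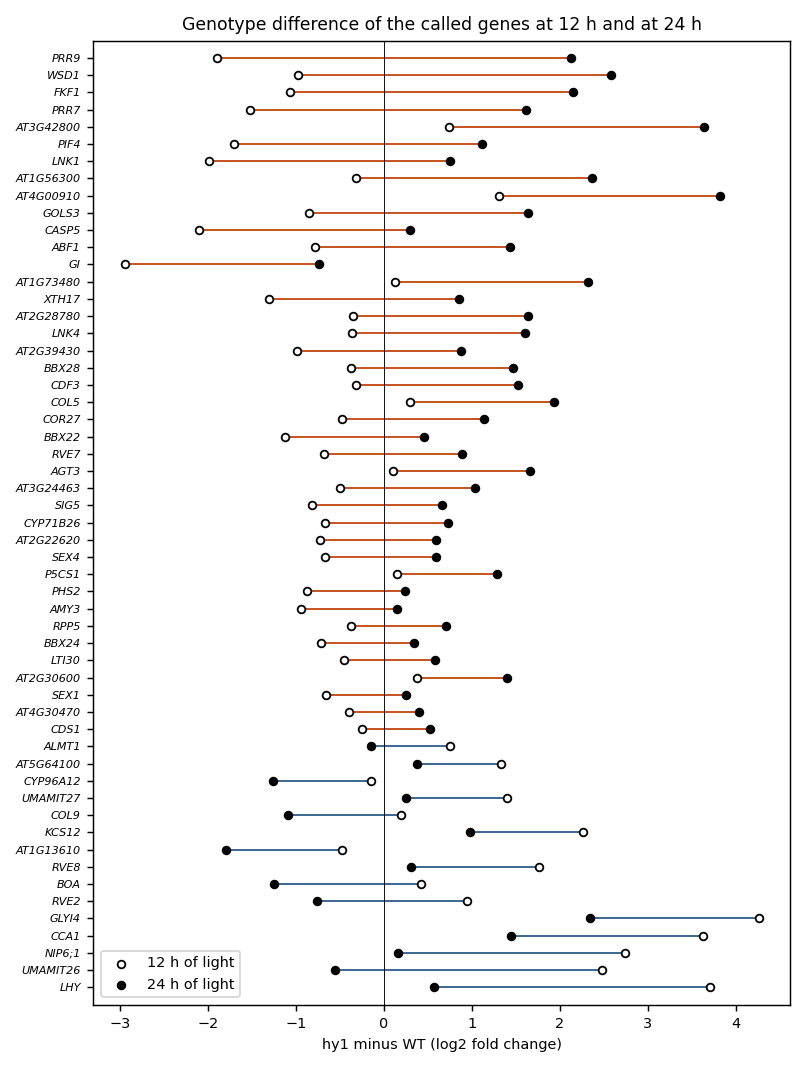
Difference between hy1 and WT (log2 fold change) at 12 h (open points) and at 24 h (filled points) for the 55 called genes, ordered by the difference of the changes, with red lines for a larger and blue for a smaller change in hy1. Of the 40 red lines 32 cross from below to above 0.

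No member was called in 30 lists, the photosynthetic ones among them. The photosystem and antenna list had a median of -0.59, with 41 of 46 members below 0. In that list 18 members rose in WT from 12 h to 24 h and 2 in hy1, with all 12 libraries. Of all genes tested 2.13% rose in WT and 1.68% in hy1. In WT the summed level at 12 h was 4773 and 3791 CPM in the 2 libraries that stood apart and 6111 in replicate 1. At 24 h it was 7378 CPM in the 1 that stood apart against 11710 and 15330. The median was -0.49 without the 3 libraries, which held less of these transcripts, and 2 members then passed. Rubisco and Calvin cycle genes had -0.695 (20 members, and -0.916 with 3 called without the 3 libraries), chlorophyll and other tetrapyrrole synthesis -0.48 (25), photoprotection -0.34 (17), and stomatal lineage markers -0.562 (11, and -1.2 without the 3 libraries). RBCS1B and LHCB1.1 had the smallest adjusted p of their lists, with -2.15 ± 0.67, adjusted p = 0.378 and -3.21 ± 0.98, adjusted p = 0.366. Regulators of adventitious and lateral roots, the process named in the series title, had a median of 0.33 over 36 members, and 0.069 without the 3 libraries, which held more of them. The smallest adjusted p there was that of LBD18, a factor of lateral root initiation (0.58 ± 0.24, adjusted p = 0.607).

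Among the hormone lists, Aux/IAA, SAUR and GH3 genes had a median of 0.26 (46 members, smallest adjusted p 0.121 for GH3.6), auxin synthesis and transport 0.11 (26, PIN7 with 0.86 ± 0.16, adjusted p = 0.0694), cytokinin 0.062 (28), gibberellin -0.11 (23), brassinosteroid 0.33 (18), ethylene -0.017 (24) and jasmonate 0.21 (32). Cell cycle and DNA replication genes had 0.0097 (41), oil reserve use 0.051 (17) and aquaporins -0.0047 (18). Flavonoid and anthocyanin genes had -0.043 (32), where MYBL2, a repressor of that pathway, had 2.0 ± 0.47, adjusted p = 0.17. The median was 0.44 for secondary wall and xylem (20), 0.42 for glucosinolate synthesis (23), 0.17 for dark and sugar starvation (25), 0.2 for rapid touch and wound response (26), 0.012 for heat shock proteins (13) and 0.0031 for phosphate starvation (19). It was -0.28 for nitrate and nitrogen assimilation (21), -0.41 for iron deficiency and storage (17), 0.043 for photoreceptors (11), -0.24 for chromophore synthesis (3), 0.38 for root hair and root tip (4) and 0.23 for shoot meristem (7). Without the 3 libraries the median turned sign for jasmonate (-0.024), gibberellin (0.083), ethylene (0.0045), cell cycle (-0.0054), flavonoid (0.049), heat shock (-0.34), root hair and root tip (-0.215), shoot meristem (-0.18) and aquaporin genes (0.36). It was 0.11 for brassinosteroid and 0.24 for oil reserve use. Jasmonate genes lay higher in those libraries than in the rest of their groups, by 0.54 at 12 h and 0.408 at 24 h. Without them 1 member each passed in the lists of Aux/IAA, SAUR and GH3, flavonoid, jasmonate, gibberellin, iron, nitrate and touch genes. The seed reserve list had 1 member tested, LEA4-5 (0.12 ± 0.78, adjusted p = 0.966).

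Without the 3 libraries 117 further genes passed, 75 with a larger change in hy1 and 42 with a smaller one, and they are named here after their values were seen. They held JMJD5 (1.66 ± 0.18), a histone demethylase that acts in the clock, and ISA3 (0.89 ± 0.13), a starch debranching enzyme. ABF3 (0.87 ± 0.13), a relative of ABF1, was also among them. The 42 held BAM9 (-0.80), a beta-amylase, and KIN1 (-1.47). Photosynthesis genes among the 42 included LHCB1.2 (-3.53), RBCS1B (-2.26), SBPASE (-1.045), GAPA-2 (-1.01) and PSBQ-2 (-0.91). The 6 genes lost were AT3G42800, SEX4, P5CS1, AT1G13610, GLYI4 and UMAMIT26. That fit rests on 1 WT 12 h library and 2 WT 24 h libraries, and it takes the lone library to vary like the other groups.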

How the data were processed

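Poly-A RNA of hypocotyls was sequenced. Read counts per gene were deposited by the authors. Per the file headers they come from featureCounts 2.0.3, with mates counted singly, no strand and no multi-mapping reads. Of counts from 1 to 10, 75.2% were even. STAR 2.7.8a, StringTie 2.1.3 and HTSeq stand in the submitters' processing notes. The deposited FPKM values are 10 times the FPKM computed from these counts and served in alternatives.

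The 12 libraries, with 38469946 to 59905064 counts each, were fitted with edgeR 4.0.16 (quasi-likelihood test, TMM factors 0.9653 to 1.078, filterByExpr, 4 group means, R 4.3.3). Calls used Benjamini-Hochberg adjusted p under 0.05 over all genes tested, every adjusted p in the text is from this test, and values after ± are standard errors of log2 differences. These were derived from the test, as the absolute log2 difference divided by the square root of the F statistic, and are approximate. CPM in the text uses TMM-scaled library sizes, except for the markers of root hair and root tip, seed reserves, shoot meristem and stomatal lineage. Their levels use total counts without TMM factors. Promoter windows came from the RefSeq TAIR10.1 genome, where 20455 of 20458 loci found had the coordinates of the files. Named were HY1 and up to 15 of the largest differences in each direction among genes called whose 12-library mean reached 5 CPM. Only 13 genes qualified in the negative direction. Up to 4 members of each list were also named, by adjusted p. Other genes were named after their values were seen. The members, the 37 lists (904 of 943 entries matched), with 3 more lists added after results were seen, and the tests were chosen with earlier results of these data known. Alternatives used limma 3.58.1 and DESeq2 1.42.0.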

Additional observations from a re-analysis of the deposited data

Results flagged for a closer look

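The test of the difference between the change in hy1 and the change in WT passed for 55 genes, and that difference, on the log2 scale, is what brought each of them here. In the clock it was larger in hy1 for PRR9 (4.03), FKF1 (3.22), PRR7 (3.14), LNK1 (2.74), GI (2.21), LNK4 (1.96), CDF3 (1.84) and RVE7 (1.57). It was smaller in hy1 for LHY (-3.14), CCA1 (-2.18), RVE2 (-1.71), BOA (-1.67) and RVE8 (-1.45). Among light signalling, B-box and plastid factors the values were PIF4 (2.83), BBX28 (1.84), COL5 (1.64), BBX22 (1.59), SIG5 (1.47), BBX24 (1.05) and COL9 (-1.28). Starch breakdown gave SEX4 (1.27), PHS2 (1.11), AMY3 (1.09) and SEX1 (0.9). Cold and abscisic acid genes gave GOLS3 (2.48), ABF1 (2.22), COR27 (1.61), P5CS1 (1.14) and LTI30 (1.03), and wall and endodermis genes CASP5 (2.4) and XTH17 (2.15).

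Outside the lists the larger changes in hy1 were those of WSD1 (3.56), AT3G42800 (2.9), AT1G56300 (2.68), AT4G00910 (2.51), AT1G73480 (2.19), AT2G28780 (1.99), AT2G39430 (1.86), AGT3 (1.55), AT3G24463 (1.54), CYP71B26 (1.4), AT2G22620 (1.32), RPP5 (1.08), AT2G30600 (1.03), AT4G30470 (0.8) and CDS1 (0.77). The smaller ones were those of ALMT1 (-0.9), AT5G64100 (-0.95), CYP96A12 (-1.11), UMAMIT27 (-1.14), KCS12 (-1.28), AT1G13610 (-1.32), GLYI4 (-1.92), NIP6;1 (-2.58) and UMAMIT26 (-3.03). Groups of 3 libraries are too small for a test of single samples that stand apart.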

How the results depend on the processing

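The 55 genes called kept their direction under all 23 alternatives that give a value per gene, and 20 of them were called in every one. The count called was 113 with all 18 libraries fitted together, 166 without the 3 libraries that stood apart, 306 with DESeq2's Wald test, 8432 with limma-voom sample quality weights and 21 at adjusted p under 0.01. It was 58 with DESeq2 size factors, 42 with upper-quartile factors, 49 with no filter and 57 with a stricter one. limma on log2(FPKM + 1) called 42 genes, 57.1% with a larger change in hy1 against 72.7% of the 55, with a median over all genes of -0.101, and log2(FPKM + 0.1) called 41 (53.7%, median -0.108). Leaving out one library gave 21 to 151 genes, the highest without WT 12 h replicate 1.

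The change in hy1 (657 genes called) gave 1025 with all 18 libraries, 3513 without the 3, 1453 with DESeq2, 254 at adjusted p under 0.01, 318 at a log2 difference of at least 1, and 285 to 989 with one library left out, the highest without WT 12 h replicate 1. The change in WT (1099) gave 1902 with all 18 libraries, 2216 with DESeq2, 387, 530 and 476 to 6246 in the same order, the highest without WT 12 h replicate 1, and 2122 when replicate 3 of WT 24 h was omitted. The genotype difference at 12 h (4630) gave 1484, 1651 and 1972 to 9868, the highest again without WT 12 h replicate 1. The difference at 24 h (2909) gave 7032 without the 3 libraries, 1157, 961 and 1327 to 4343. The causes were not tested.

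The labels do not say whether equal replicate numbers mark a shared origin. The 18 correlations of same-numbered deviations ran from -0.301 to 0.613, and 6 were over 0.1. The highest were those of WT 12 h with WT 24 h, 0.613 for replicate 1 and 0.526 for replicate 3, against -0.301 for replicate 2. In WT, replicate 3 stood apart at both times, replicate 2 at 12 h only and replicate 1 at neither. A shared origin cannot be told apart from this pattern in these values. As the labels name no pairs, the numbers were not treated as pairs. With the replicate block 41 genes were called, 39 of them among the 55, and the other comparisons gave 669, 1127, 4999 and 3115.

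Among genes named with a value, RHS10 (-0.010 without the 3 libraries) and LEA4-5 turned direction, the latter to -0.38 with voom weights and to -0.2458, -0.2292, -0.2272 and -0.2347 with single libraries left out, where its range reached 0.4972. Neither was called. Low counts limit LEA4-5, UMAMIT26 and the CBF genes most.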
